A study of Bombyx mori with 3 samples.

Results

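Serpins and small protease inhibitors were followed in the midgut of silkworm larvae (Bombyx mori) through 9 probes, chosen by their array identifiers because of the protein names in the array annotation, out of 23229 gene probes in all. They match serpin-2 (sw18472 and sw17678), serpin-5 (sw18245), antitrypsin precursor (sw11925), fungal protease inhibitor F (sw06771 and sw01309), the chymotrypsin inhibitor Sci-sb (sw10501), the silk proteinase inhibitor Spi2 (sw10509) and a dipetalogastin-like inhibitor (sw08029). Phoxim is an organophosphate insecticide: treated larvae of strain P50 ate mulberry leaves held for 1 min in a 4 µg/mL solution of it, and control larvae of the same strain ate leaves held in water. Feeding started on day 3 of the fifth instar and the midguts were dissected after 24 h, with 30 larvae per experiment, per the labels. Each of 3 two-colour arrays set RNA of phoxim midguts against RNA of control midguts, and the design text names them biological replicates.

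Protease inhibitors keep proteolysis in check. Serpins are large inhibitors that offer a bait loop to a serine protease and trap the enzyme in a covalent complex when the loop is cut. Small inhibitors of the Kunitz, Kazal and related cysteine-rich families sit in the active site as tight, reversible plugs. In moths, inhibitors of both kinds circulate in the haemolymph, where they restrain the protease cascades of melanisation and Toll signalling, and small inhibitors also occur in silk; the midgut itself secretes trypsins and chymotrypsins into its lumen as digestive enzymes.

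The direction of replicate 2 is not settled by the sources. Replicate 2 has phoxim RNA in Cy3 by its header and the other arrays have it in Cy5, while the labels and the design text give Cy5 throughout. The headers were followed, and the value with replicate 2 turned round is given beside the mean of each of the 9 probes. The sign of Cy5 over Cy3 for 8 of the 8 spotted positive controls was opposite on replicate 2 to that on replicates 1 and 3. Under the headers, log2 ratios of replicates 1 and 2 correlated across the 3964 kept gene probes with r = 0.62, but across all gene probes, most of them dim, with r = -0.47. On the kept probes replicate 3 stood apart from both, with r = 0.18 to replicate 1 and r = 0.26 to replicate 2; across all gene probes these were 0.42 and -0.45. Genes are not independent replicates in these correlations. The 95th percentile of the negative control spots was higher in Cy3 than in Cy5 on every array. On replicates 1, 2 and 3 it was 306.8, 347.85 and 339.95 in Cy3, against 199.9, 164.4 and 86.95 in Cy5. The part of this dye difference in the correlations over all gene probes was not tested. A probe was kept when its brighter channel reached an intensity of 400, the files' lower mark for presence, on all 3 arrays. All 9 probes were kept, and both channels of each lay above the 95th percentile of the negative control spots of that channel on all 3 arrays. The 9 are no sample of the family: of 58 probes that the annotation names as protease inhibitors or alike, 15 were kept and 41 stayed below the mark on every array.

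None of the 9 inhibitor probes passed the threshold after phoxim, an adjusted p of 0.05 in limma over all kept probes, at which 0.681% of the kept probes were called. With replicate 2 turned round, 0 of the 3964 kept probes passed (29 at an unadjusted p below 0.05, limma), so every call below rests on the headers. At an unadjusted p below 0.05, where 15.2% of kept probes fell, 2 of the 9 were found, fungal protease inhibitor F (sw06771) and Sci-sb. The same 2 probes were the only ones of the 9 with a log2 ratio above 0 on all 3 arrays, a pattern seen in 23.0% of kept probes. None had a log2 ratio below 0 on all 3, against 14.3% of kept probes. The mean log2 ratios of the 9 ranged from -0.50 to 1.60 with a median of 0.15, beside a median of 0.03 over all kept probes. Their spread between arrays had a median SD of 0.39 on the log2 scale, beside 0.29 over all kept probes.

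**Figure D1:**
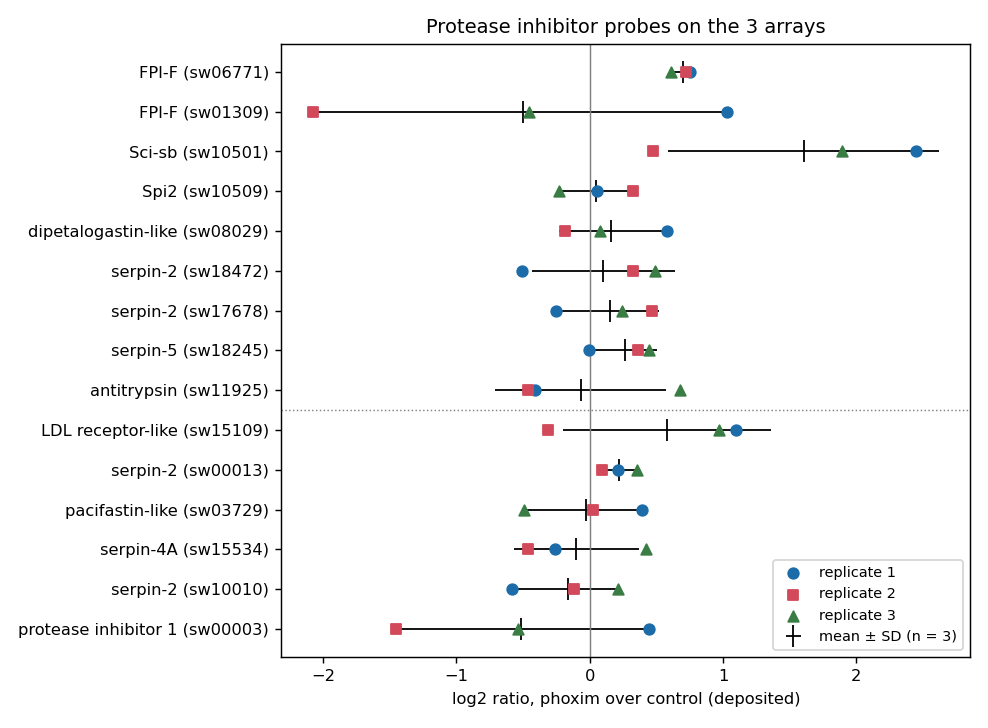
Log2 ratio of phoxim over control (x axis) for each protease inhibitor probe (rows; the 9 probes described above the dotted line, other kept probes of the inhibitor list below it), with 1 point per array and the mean ± SD of 3 arrays as a bar. The fungal protease inhibitor F probe sw06771 lies between 0.61 and 0.75 on all arrays, while its relative sw01309 spans -2.08 to 1.03.

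Fungal protease inhibitor F, a small cysteine-rich inhibitor known from silkworm haemolymph for acting on proteases of fungi, was read by 2 kept probes that behaved unlike each other. The probe sw06771 had intensities of 59612, 45767 and 57108 in the phoxim channel of replicates 1, 2 and 3, against 27863, 35958 and 36815 in the control channel. Under the headers every phoxim value was above every control value, while with replicate 2 turned round the groups overlapped. The deposited ratios were 1.68, 1.65 and 1.53, each marked by the authors as at least 1.5-fold, which was true of 2.09% of kept probes on all 3 arrays. The mean log2 ratio was 0.70 ± 0.07 (SD, n = 3), or 1.62-fold, with a 95% interval of 0.32 to 1.07 and an adjusted p of 0.12 (limma). With replicate 2 turned round the mean was 0.21. The phoxim value of replicate 1 was the highest Cy5 intensity on its array, so that spot counted as saturated. Without replicate 3 the mean was 0.74 and passed (adjusted p = 0.039, limma), in a fit that called 11.9% of kept probes.

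The narrow spread of sw06771 belonged to the deposited ratio. A difference between the highest and the lowest array as small as its 0.14 on the log2 scale was seen in 5.47% of kept probes. The plain quotients of its phoxim over control intensities were 2.14, 1.27 and 1.55, with an SD of 0.38 on the log2 scale. With 50 added to the intensities and loess within each array, its log2 ratios were 0.79, 0.79 and 0.33 (SD 0.26) and its mean was 0.63.

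The second probe with that protein match, sw01309, had phoxim intensities of 2315, 1472 and 3944 on replicates 1, 2 and 3, against control intensities of 1000, 7527 and 5981. Phoxim was the brighter channel on replicate 1 and control on the other arrays, and the 2 groups overlapped. Its log2 ratios were 1.03, -2.08 and -0.46, a span of 3.11 that 0.328% of kept probes reached. The mean was -0.50 ± 1.55 (SD, n = 3) with a 95% interval of -1.73 to 0.72 (adjusted p = 0.64, limma). It was 0.88 with replicate 2 turned round, 0.29 without replicate 2 and -1.27 without replicate 1. Within arrays, sw06771 minus sw01309 was -0.28, 2.80 and 1.07 on the log2 scale, so the probes differed most on replicate 2. The array assigns them to separate gene models, Bmb034183 and Bmb019720, and whether the protein name holds for both was not tested. The other 3 probes with this match stayed below the mark, with intensities of at most 265.

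Sci-sb, a Kunitz-type chymotrypsin inhibitor of the haemolymph, had the highest mean of the 9. The phoxim channel read 2942, 1084 and 9730 on replicates 1, 2 and 3, against 519, 697 and 2699 in the control channel. Phoxim was brighter on every array, but the groups overlapped, because the control of replicate 3 exceeded the phoxim value of replicate 2. Both channels were brightest on replicate 3. The deposited ratios were 5.45, 1.39 and 3.71, and the mean log2 ratio was 1.60 ± 1.02 (SD, n = 3), or 3.04-fold, with a 95% interval of 0.76 to 2.45 (adjusted p = 0.12, limma). The mean was 1.29 with replicate 2 turned round and 2.17 without it, and neither passed. Without replicate 3 it was 1.46 and passed (adjusted p = 0.049, limma), again where 11.9% of kept probes were called.

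Another chymotrypsin inhibitor, CI-8A (LOC778450, probe sw19598), was not among the 9 and not kept, since its brighter channel on replicate 2 was below 400. It is described here after its values were seen. Its phoxim intensities were 1077, 342 and 7651 on replicates 1, 2 and 3, against control intensities of 357, 120 and 1528. On replicate 2 neither channel was above the negative controls. The deposited ratios were 2.35, 2.13 and 3.48. In a fit of all gene probes its mean log2 ratio of 1.38 had an unadjusted p of 0.012 and an adjusted p of 1.00 (limma). The other probe of the inhibitor list that reached the mark on some arrays only, sw17694, had ratios of 2.13, 0.778 and 2.27 (mean 0.64, unadjusted p = 0.23, limma). It entered the list by a match to an alpha-2-macroglobulin receptor, which is not an inhibitor.

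Markers of other tissues were read on the same arrays, and those of fat body rose most often. Of 61 probes named for fat body proteins such as 30K proteins and arylphorins, 26 were kept and 10 rose (adjusted p below 0.05, limma), beside 0.505% of kept probes called higher. The median log2 ratio of the 26 was 0.70, 0.38 and 0.89 on replicates 1, 2 and 3. The summed intensity of all 61 was 226582, 160167 and 379397 in the phoxim channel, against 143667, 159347 and 159345 in the control channel. The phoxim channel of replicate 3 also had the highest sum of the 9 inhibitor probes (115677), of the serine proteases (599082) and of the midgut names (740326). Of 60 probes with haemocyte names, 9 were kept and 1 rose (4 at an unadjusted p below 0.05, all 4 higher, limma). At that unadjusted p, 423 of the 3964 kept probes were higher and 180 lower (limma). The median log2 ratio of the 9 haemocyte probes was 0.41, 0.30 and 0.59 on replicates 1, 2 and 3. The sums of all 60 ranged from 12977 to 15283 in phoxim and from 8916 to 13932 in control midguts. Of these 60, 14 were at or below 0 in Cy5 on all arrays, as were 17 of the 61 fat body probes. Of 90 probes with muscle names, 29 were kept and none passed (10 at an unadjusted p below 0.05, all 10 higher, limma), with median log2 ratios of 0.46, 0.20 and 0.28 on replicates 1, 2 and 3. Their sums were 163632, 130113 and 143997 in the phoxim channel, against 105597, 127593 and 104542 in the control channel. The part of these tissues in the inhibitor values was not tested, and in bulk tissue a change in the share of cells and a change in RNA per cell cannot be told apart. Of 118 probes with midgut names, a list that shares the trypsins with the serine proteases, 53 were kept. Of these, 3 rose and 1 fell, beside 0.505% and 0.177% of kept probes called higher and lower (limma). Their median log2 ratio was 0.12. Of 12 probes with silk gland names none was kept and no intensity was above 667.

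**Figure D2:**
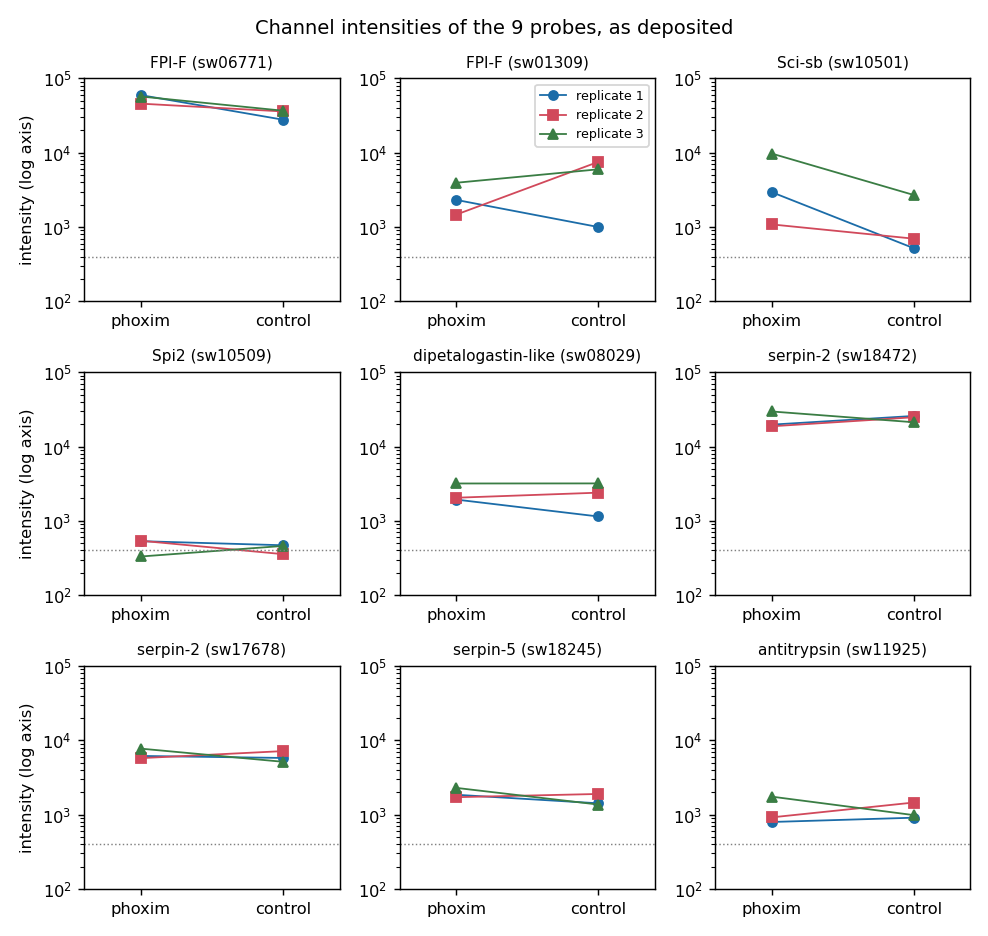
Deposited intensity (y axis, log scale) of the 9 probes in the phoxim and control channels, with 1 line per array and the lower presence mark of 400 dotted. Lines slope down to the right for sw06771 and Sci-sb on all 3 arrays. For sw01309 and the serpins they slope down on some arrays and up on others.

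Spi2, named for proteinase inhibitors found in silk, was read close to the presence mark. Its phoxim intensities were 532, 539 and 331 on replicates 1, 2 and 3, against control intensities of 469, 356 and 459. The groups overlapped and at least 1 channel reached the mark on each array. The deposited ratios were 1.04, 1.25 and 0.853, and the mean log2 ratio was 0.05 ± 0.28 (SD, n = 3) with a 95% interval of -0.37 to 0.47 (adjusted p = 0.91, limma). Turning replicate 2 round gave -0.17.

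The probe sw08029 matches dipetalogastin, a Kazal-type thrombin inhibitor of the blood-feeding bug Dipetalogaster, and its role in the silkworm is not given by that match. It had phoxim intensities of 1930, 2046 and 3181 on replicates 1, 2 and 3, against control intensities of 1144, 2393 and 3188. The groups overlapped, and on replicate 3 the channels nearly coincided. The deposited ratios were 1.50, 0.880 and 1.06, with a mean log2 ratio of 0.16 ± 0.39 (SD, n = 3), a 95% interval of -0.31 to 0.63 and an adjusted p of 0.70 (limma). The mean was 0.28 with replicate 2 turned round and -0.05 without replicate 1.

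Serpin-2 was read by 4 kept probes: sw18472 and sw17678, described here as members of the group, and sw10010 and sw00013, which the array assigns to the same gene as sw18472 (LOC692573, named serpin-2 in RefSeq). The probe sw18472 had phoxim intensities of 19714, 18731 and 29622 on replicates 1, 2 and 3, against control intensities of 25793, 24775 and 21226. Its log2 ratios were -0.51, 0.33 and 0.49, and the mean was 0.10 ± 0.54 (SD, n = 3) with a 95% interval of -0.45 to 0.65 (adjusted p = 0.85, limma). With replicate 2 turned round the mean was -0.11, and with loess on the intensities -0.16. The groups overlapped, and phoxim was the brighter channel on replicate 3 only.

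The probe sw17678 carries the serpin-2 protein match but no gene identifier. It had phoxim intensities of 6164, 5759 and 7727 on replicates 1, 2 and 3, against control intensities of 5790, 7156 and 5144, and the groups overlapped. Its log2 ratios were -0.25, 0.46 and 0.24, with a mean of 0.15 ± 0.37 (SD, n = 3), a 95% interval of -0.31 to 0.61 and an adjusted p of 0.71 (limma). The mean was -0.16 with replicate 2 turned round.

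The other kept serpin-2 probes did not pass either, and the 3 serpin-2 probes not kept had intensities of at most 282. The probe sw10010 had log2 ratios of -0.58, -0.12 and 0.21 (mean -0.16, adjusted p = 0.69, limma). The probe sw00013 had 0.21, 0.09 and 0.35 (mean 0.22, adjusted p = 0.51, limma); its best protein match is a membrane-associated ring finger protein, so its assignment to serpin-2 is uncertain. In deposited log2 ratio, the 3 probes with a serpin-2 protein match, sw18472, sw17678 and sw10010, were all below 0 on replicate 1 and all above 0 on replicate 3. In intensity, sw17678 was brighter in phoxim than in control on replicate 1 (6164 against 5790). Over all 4 probes the range was -0.58 to 0.21 on replicate 1, -0.12 to 0.46 on replicate 2 and 0.21 to 0.49 on replicate 3. RefSeq lists more than 1 transcript for this gene, and which of them each probe reads was not tested.

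Serpin-5 (LOC692688), whose relative in the tobacco hornworm Manduca sexta restrains haemolymph proteases of immune cascades, was read by sw18245. Its phoxim intensities were 1850, 1717 and 2289 on replicates 1, 2 and 3, against control intensities of 1420, 1897 and 1366. The groups overlapped because the control of replicate 2 exceeded 2 of the phoxim values. The log2 ratios were -0.004, 0.36 and 0.44, with a mean of 0.27 ± 0.24 (SD, n = 3), or 1.20-fold, a 95% interval of -0.14 to 0.68 and an adjusted p of 0.47 (limma). Turned round on replicate 2, the mean was 0.03. The other 2 probes with a serpin-5 match had intensities of at most 50.

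Antitrypsin, a haemolymph serpin that inhibits trypsin, was read by sw11925. Its phoxim intensities were 796, 919 and 1745 on replicates 1, 2 and 3, against control intensities of 909, 1454 and 985. Phoxim was brighter on replicate 3 alone, where the authors marked the ratio of 1.60 as at least 1.5-fold. The log2 ratios were -0.41, -0.47 and 0.67, with a mean of -0.07 ± 0.64 (SD, n = 3), a 95% interval of -0.67 to 0.54 and an adjusted p of 0.92 (limma). With replicate 2 turned round the mean was 0.24. Another probe with an antitrypsin match was not kept, with intensities of at most 240. A serpin-4 probe, sw15534 (LOC692644), had the same signs in deposited log2 ratio on each array. Its values were -0.26, -0.47 and 0.42 on replicates 1, 2 and 3 (mean -0.10, adjusted p = 0.84, limma). Control was its brighter channel on all 3 arrays, and on replicate 3 its quotient was 0.983 while the deposited ratio was 1.34.

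Serpins of other names were below detection by the presence mark. The 8 probes matched to serpin 1 or serpin K of other moths had intensities of at most 297, and the 2 serpin-6 probes of at most 68.

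The deposited normalization decided the side of single values, as it did for a like share over all kept probes. On replicate 2 the phoxim channel of sw18472 was dimmer than control, with a quotient of 0.756, while the deposited ratio was 1.25. The same held on replicate 2 for sw17678 (quotient 0.805, ratio 1.38) and for serpin-5 (quotient 0.905, ratio 1.29). On replicate 1 these probes went the other way, sw17678 with a quotient of 1.06 and a ratio of 0.839. Serpin-5 had 1.30 and 0.997 there. The dipetalogastin-like probe had a quotient of 0.998 and a ratio of 1.06 on replicate 3. Of the 27 values of the 9 probes on 3 arrays, 6 lay on opposite sides of 1 in quotient and ratio, or 22.2%, beside 19.0% of values over all kept probes.

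**Figure D3:**
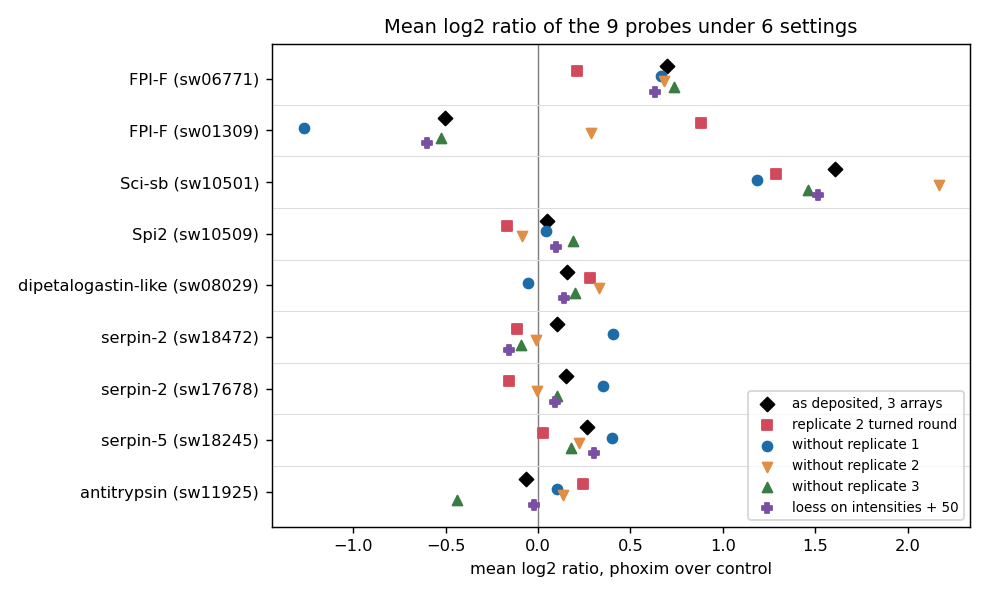
Mean log2 ratio of phoxim over control (x axis) of the 9 probes (rows) as deposited, with replicate 2 turned round, with each replicate left out and with loess on the intensities plus 50. The probe sw06771, Sci-sb and serpin-5 (0.03 to 0.40) stay above 0 in the 6 settings drawn, while sw01309 and the serpin-2 probes lie on both sides of 0.

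Among the other kept probes of the inhibitor list, none passed. Protease inhibitor 1 (LOC692992, sw00003) had log2 ratios of 0.44, -1.46 and -0.54 on replicates 1, 2 and 3, with each channel above the negative controls on 2 arrays only (mean -0.52, adjusted p = 0.48, limma). Like sw01309, it was above 0 on replicate 1 and lowest on replicate 2. A probe matched to pacifastin light chain, a protease inhibitor of crayfish blood (sw03729), had 0.39, 0.03 and -0.50 (mean -0.03, adjusted p = 0.96, limma). The probe sw15109 entered by the alpha-2-macroglobulin in its description but its best match is a low-density lipoprotein receptor-related protein, not an inhibitor; only 1 of its control values exceeded the negative controls, and it had 1.09, -0.32 and 0.97 (mean 0.58, adjusted p = 0.38, limma). Without it the median of the list was 0.08 over 14 probes, and with it 0.10 over 15. In all, 0 of the 15 passed and 2 had an unadjusted p below 0.05, beside 0.681% and 15.2% of kept probes (limma).

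The serine proteases, the class of enzymes that most of these inhibitors act on, were drawn by name as 109 probes, of which 35 were kept. Of these, 3 rose, 1 fell and 31 did not pass (limma), beside 0.505% and 0.177% of kept probes called higher and lower. Their median log2 ratio was 0.52, beside 0.10 for the 15 inhibitor probes and 0.03 for all kept probes; the difference between the lists was not tested. With replicate 2 turned round the medians were 0.19 for the proteases and 0.21 for the inhibitors, and no protease passed.

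The proteases that rose are known as digestive enzymes by their matches. The alkaline trypsin probe sw00532 had ratios of 2.69, 2.36 and 1.91 on replicates 1, 2 and 3 (mean log2 ratio 1.20, adjusted p = 0.042, limma). The chymotrypsin-like LOC732967 (sw19184) had 2.40, 2.41 and 2.00 (mean 1.18, adjusted p = 0.033, limma), and the chymotrypsin probe sw06092 had 2.12, 2.36 and 1.96 (mean 1.10, adjusted p = 0.043, limma). The trypsin probe sw02096 fell, with ratios of 0.357, 0.0971 and 0.145 (mean -2.55, adjusted p = 0.032, limma). Without replicate 2 the means were 1.18, 1.13, 1.03 and -2.14 in the same order, and none of the 4 passed with the remaining 2 arrays (adjusted p of 0.25 to 0.47, limma). Without replicate 1 the 3 rises did not pass either, with means of 1.09, 1.13 and 1.11 (adjusted p of 0.092 to 0.11, limma), while the fall did. Without replicate 3, 14 of the 35 serine proteases were called, beside 11.9% of all kept probes. With loess on the intensities, sw00532 (mean 1.05, adjusted p = 0.083, limma) and sw19184 (mean 0.77, adjusted p = 0.18, limma) did not pass. In that setting sw06092 (mean 1.26, adjusted p = 0.026, limma) and sw02096 (mean -2.70, adjusted p = 0.0048, limma) passed.

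**Figure D4:**
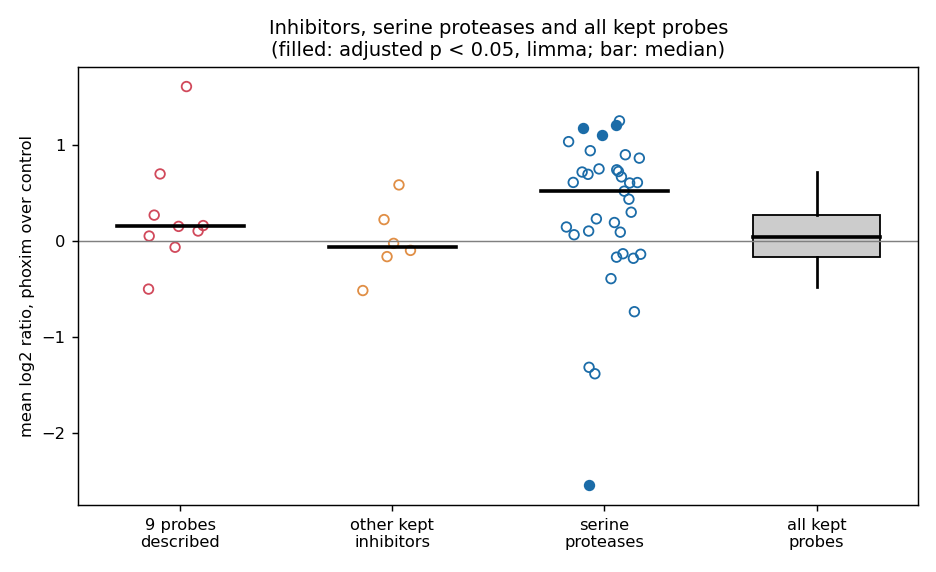
Mean log2 ratio of phoxim over control (y axis) for the 9 probes described, the 6 other kept inhibitor probes and the 35 kept serine protease probes, with a bar at each median and filled points for an adjusted p below 0.05 in limma. The box for all kept probes spans the 25th to the 75th percentile with whiskers to the 5th and 95th. The 4 filled points are all serine proteases.

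The kept probe most like each of the 9 was sought by the Euclidean distance between the log2 ratios of the 3 arrays, among probes with a symbol or protein match. For sw06771 it was sw03416, matched to Charybde of Drosophila, at a distance of 0.11 (0.69, 0.80 and 0.67 on replicates 1, 2 and 3). For sw01309 it was sw00529 (An0128), matched to an antennal carrier protein of Anopheles, at 0.46 (1.49, -2.12 and -0.42). Sci-sb lay farther from any probe: the nearest, sw00838, matched to a trypsin of the moth Sesamia, was at 0.93 (1.72, 0.68 and 1.35). Of the others, the neighbours lay within 0.047 to 0.11, among them Rps20 for the dipetalogastin-like probe and a vacuolar ATPase subunit, LOC778463, for antitrypsin. With loess on the intensities, sw00529 was still the nearest to sw01309, while 2 to 2648 named probes came nearer to each of the other 8, the highest number being that for sw17678.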

How the data were processed

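Per the file headers, each deposited array file gives, for every spot, the linear intensity in Cy5 and Cy3 and a phoxim/control ratio. No separate background is given, and the ratio is not the quotient of the intensities, so the authors had normalized it. The deposited log2 value table equals the log2 of the ratio on all 24288 spots to within 4.9e-09; its column medians were 0.040, -0.021 and 0.016, and its direction is that of the headers. How the arrays were scanned and normalized is not given in the sources used here. Analysis started from the deposited ratio. Control spots were left out.

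An intercept-only model of log2 ratios was fitted (limma 3.58.1, R 4.3.3; lmFit, eBayes, two-sided), with Benjamini-Hochberg adjustment over 3964 kept probes. On simulated ratios of these 3964 probes, 44.5% of 200 probes changed by 1 on the log2 scale and 92.0% of those changed by 2 were recovered. False calls numbered 2 and 6. The simulated noise was normal, with each probe's own SD, and independent between probes and arrays. Differences shared by the probes of an array were not simulated, so these shares need not hold for the real arrays. An exact sign-flip test of 3 arrays cannot go below p = 0.25. The number of arrays limits the precision.

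Members and lists were chosen with earlier results of these data known. Named were the 9 probes, other kept probes of the inhibitor list, called serine proteases and, for each member, the kept probe nearest in its 3 log2 ratios. Lists are patterns on symbols and descriptions. Of the 9 probes, 4 carried a gene identifier, 3 of which were found in the RefSeq table of assembly ASM3026992v2, used for names only. No coordinates are given. Alternatives covered the direction of replicate 2, the normalization, the filter, centring, scaling, the variance model, a dye term, the value table and each replicate left out.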

Additional observations from a re-analysis of the deposited data

How the results depend on the processing

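Each array pairs phoxim RNA with control RNA, so the fit of its log2 ratios is already a paired one, and no further replicate block was fitted. The count of called members was 0 in each setting that keeps all 3 arrays (limma; 0 to 3 at an unadjusted p below 0.05), and 0 to 2 with 1 replicate left out. Without replicate 3, the fungal protease inhibitor F probe sw06771 (0.74, adjusted p = 0.039) and Sci-sb (1.46, adjusted p = 0.049) passed in limma, in a fit that called 11.9% of all kept probes. The inhibitor list likewise gave 0 to 2. Over all probes 27 were called, but 0 with replicate 2 turned round (29 at an unadjusted p below 0.05), 0 with all gene probes kept (450), 0 with a dye term (348), 1 with scaling between arrays, 16 with both channels above the mark and 4 to 470 with 1 replicate left out (limma). For serine proteases the main count of 4 was 0 with replicate 2 turned round (0 at an unadjusted p below 0.05), with all gene probes kept (12), with scaling (18) and with a dye term (17), 2 with median centring and 0 to 14 with 1 replicate left out. With loess on the intensities the count was again 4, but sw00532 and sw19184 were not among those called.

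Means changed sign with replicate 2 turned round for sw01309 (0.88), Spi2 (-0.17), sw18472 (-0.11), sw17678 (-0.16), sw11925 (0.24), sw00003 (0.45) and sw15534 (0.21). With loess on the intensities sw18472 gave -0.16, and with a median-centred quotient, chosen after seeing the data, -0.12. With 1 replicate left out, the range was -1.27 to 0.29 for sw01309, -0.087 to 0.19 for sw10509, -0.053 to 0.33 for sw08029, -0.093 to 0.41 for sw18472, -0.0067 to 0.35 for sw17678, -0.44 to 0.13 for sw11925, -0.24 to 0.21 for sw03729, -0.35 to 0.045 for sw10010 and -0.36 to 0.083 for sw15534. The cause of these changes was not tested. Over all alternatives, 99 values of the 9 members kept their sign and their side of the threshold, 15 changed sign and 2 passed. The mean could not change where only the filter or the variance model was altered. Nor could it with the value table, which equals the deposited ratios. No probe of any kind passed with replicate 2 turned round, with all gene probes kept or with a dye term. The tally is therefore no measure of how stable the results are.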
